A study of Mus musculus with 9 samples.

Results

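In 62 protein-coding genes, RNA in Mdl-1-/- ear with interleukin 23 (IL-23) DNA was lower than in wild-type ear both with and without IL-23 DNA. MDL-1, encoded by Clec5a, is a receptor of myeloid cells that signals through the adaptors DAP12 and DAP10, and IL-23 is a cytokine that drives psoriasis-like skin inflammation. In skin IL-23 acts on T cells and innate lymphoid cells, whose IL-17 and IL-22 in turn act on keratinocytes. Ears of C57BL/6 mice aged 10 weeks were read by 3' tag RNA-Seq, which counts each transcript near its 3' end, in 3 groups of 3 libraries. Each mouse was given 15 µg of minicircle DNA, a circular expression construct that lacks bacterial backbone, into the tail vein. In wild type it encoded either IL-23 or, as control, green fluorescent protein (GFP), and in Mdl-1-/- it encoded IL-23. No group of Mdl-1-/- mice with GFP DNA was analysed here, so a genotype difference present before IL-23 and one that arises under IL-23 cannot be told apart. Whether each library came from a separate animal is not stated, and p-values therefore measure the spread between these libraries, which may be technical.

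The genes were chosen on their levels in CPM (raw count over the library total, scaled to 1000000). Of 54838 genes in the tables, 8044 were protein-coding, had a mean of at least 5 CPM in both wild-type groups and did not have a left-out symbol (mitochondrially encoded, Rpl, Rps, Gm with a number, or Rik). In 306 of these 8044 genes (3.8%) each of the 3 Mdl-1-/- libraries lay below all 6 wild-type libraries, and in 62 (0.771%) the Mdl-1-/- mean was also at most 0.67 times each wild-type mean. The low Mdl-1-/- level was thus the criterion and is described here without a test. The ratio of the Mdl-1-/- mean to the lower wild-type mean had a median of 0.599 and ran from 0.235 in Slc15a2 to 0.6698 in Slc38a2. It was at most 0.5 in 8 genes, between 0.5 and 0.6 in 23 and above 0.6 in 31. Just inside the limit stood Ercc2 (ratio 0.664), Sugp2 (0.669) and Slc38a2 (0.6698), and just outside it Fhod1 (0.674), Prune1 (0.678) and Rcor3 (0.683). The number of genes chosen moves with single libraries: leaving out wild-type IL-23 library 3 gave 105 genes, and leaving out Mdl-1-/- library 1 or 3 gave 101 or 128. With 1 library fewer, the criterion on every library is easier to meet, which by itself raises the number. Of the 62 genes, 82.3% to 100% still met the criteria when 1 library was left out. The gap between the highest Mdl-1-/- library and the lowest wild-type library had a median of 19.2% of the latter and was under 10% in 13 of the 62 genes.

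Totals ran from 3776188 to 5605713 counts, so that a count of 0 allows up to 0.535 CPM in the deepest and 0.794 CPM in the shallowest library (3 counts; counting error only). Mitochondrially encoded genes took 14.04% ± 1.31 (SD, n = 3) of the counts for GFP, 8.85% ± 0.153 for wild-type IL-23 and 12.2% ± 0.784 for Mdl-1-/- libraries. Markers of epidermis, dermis, muscle and fat were read in every library, while cartilage markers were uneven: Col2a1 reached at most 3.75 CPM, and Acan stood at 32.2, 16.4 and 37.6 CPM for GFP, 4.89, 4.12 and 1.06 CPM for wild-type IL-23 and 10.1, 5.33 and 13.2 CPM for Mdl-1-/- libraries. Krt10 of the differentiating epidermis, outside the 62, stood at 3494 ± 1057 CPM for GFP, 4438 ± 876 CPM for wild-type IL-23 and 14572 ± 2171 CPM for Mdl-1-/- libraries. Its part in the low values of the 62 genes, which share the same totals, was not tested. Clec5a itself gave 2, 7 and 10 counts for GFP, 17, 21 and 11 for wild-type IL-23 and 10, 13 and 5 for Mdl-1-/- libraries. Since the labels do not name the region deleted, this 3' tag does not check the genotype. In bulk tissue, fewer cells of a type and less RNA per cell cannot be told apart.

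Of the 3 Mdl-1-/- libraries, 2 stood apart in genes of the sex chromosomes. Xist, the RNA of the silenced X chromosome of females, was read at 0, 53.3 and 122 CPM in Mdl-1-/- libraries 1, 2 and 3, against at most 0.611 CPM in the 6 wild-type libraries. Genes of the Y chromosome were nevertheless read in all 9 libraries. Ddx3y stood at 124, 86.9 and 61.7 CPM and Eif2s3y at 34.3, 14.3 and 19.1 CPM in the same 3 Mdl-1-/- libraries. In the wild-type IL-23 group Ddx3y stood at 125, 139 and 135 CPM and Eif2s3y at 34.04, 26.7 and 29.1 CPM. Libraries 2 and 3 thus held Xist together with less RNA of these Y genes, as the plot of sex-linked genes shows, and the labels give neither the sex of the mice nor any pooling. Membership and several of the counts over gene lists are therefore also given without them. Roles, positions, promoters, composition and overlaps with other genes are described only for the 62 genes as chosen on all 3 Mdl-1-/- libraries. On Mdl-1-/- library 1 alone 47 of the 62 genes met every criterion. The 15 that did not were Iqcc, Dnajb3, Col18a1, Dsc2, Uty, Zdhhc15, Utp14b, Pnpla7, Capns1, Vegfb, Klhdc8b, Cdk10, Ap1g2, Sugp2 and Slc38a2. That setting is looser, since 1 library has to lie below the others, and 220 genes met it in all.

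**Figure D1:**
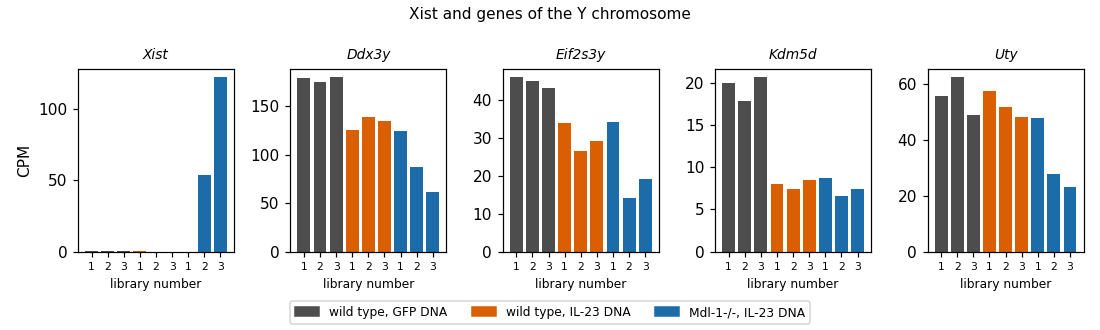
Bars give CPM (y axis) of Xist and 4 genes of the Y chromosome in each of the 9 libraries (x axis, numbered within the group), coloured by group. Xist reached 53.3 and 122 CPM in Mdl-1-/- libraries 2 and 3 and 0 CPM in library 1, and Uty was lowest in those same libraries 2 and 3.

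The 62 genes have no single known function, and the grouping by role used below was made after the members were known. The most represented roles were control of transcription, RNA processing and DNA repair (13 genes), traffic between the endoplasmic reticulum, Golgi and endosomes (10), lipid and sterol metabolism (8) and secreted, matrix or adhesion proteins (8). There were 6 genes of other metabolism, 4 of membrane transport, 3 of immune function, 1 of the Y chromosome and 9 others. Of 43 lists of cell type and pathway genes, 38 held no member. Together the lists hold 426 of the 8044 genes, and 5 of the 62 members: Scd3, Cyp51, Egfl7, Hp and Uty. Most lists are small beside a background of 0.771%, so that a list without a member says little; the list of MDL-1 and DAP12 signalling, for instance, holds 6 of the 8044. Outside the 62, edgeR called 12 of 17 tested hypoxia and glycolysis genes lower and 0 higher in Mdl-1-/- than in wild-type IL-23 ear. Over all genes, 10.1% were called lower and 7.58% higher. Of 19 tested stress keratin and cornified envelope genes, 13 were called lower and 0 higher. Hair follicle and hair shaft genes, among others, went the other way, with 3 of 9 called higher and 0 lower. Against GFP DNA these lists did not share the low level of the members. There 9 of the 17 hypoxia and glycolysis genes were called higher and 0 lower (10.2% and 6.93% of all genes). All 19 stress keratin and cornified envelope genes were called higher, and of the 9 hair genes 0 were called higher and 1 lower. In the MDL-1 list named above and in the cell cycle and mitosis list, 0 genes were called either way against GFP DNA. Against wild type given IL-23, 8 of 15 tested genes of the MDL-1 list were called lower and 0 higher. Among cell cycle and mitosis genes, 7 of 23 were called lower and 0 higher. Without Mdl-1-/- libraries 2 and 3, these counts of lower genes were 2 of 16 and 4 of 23 (4.02% of all genes).

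**Figure D2:**
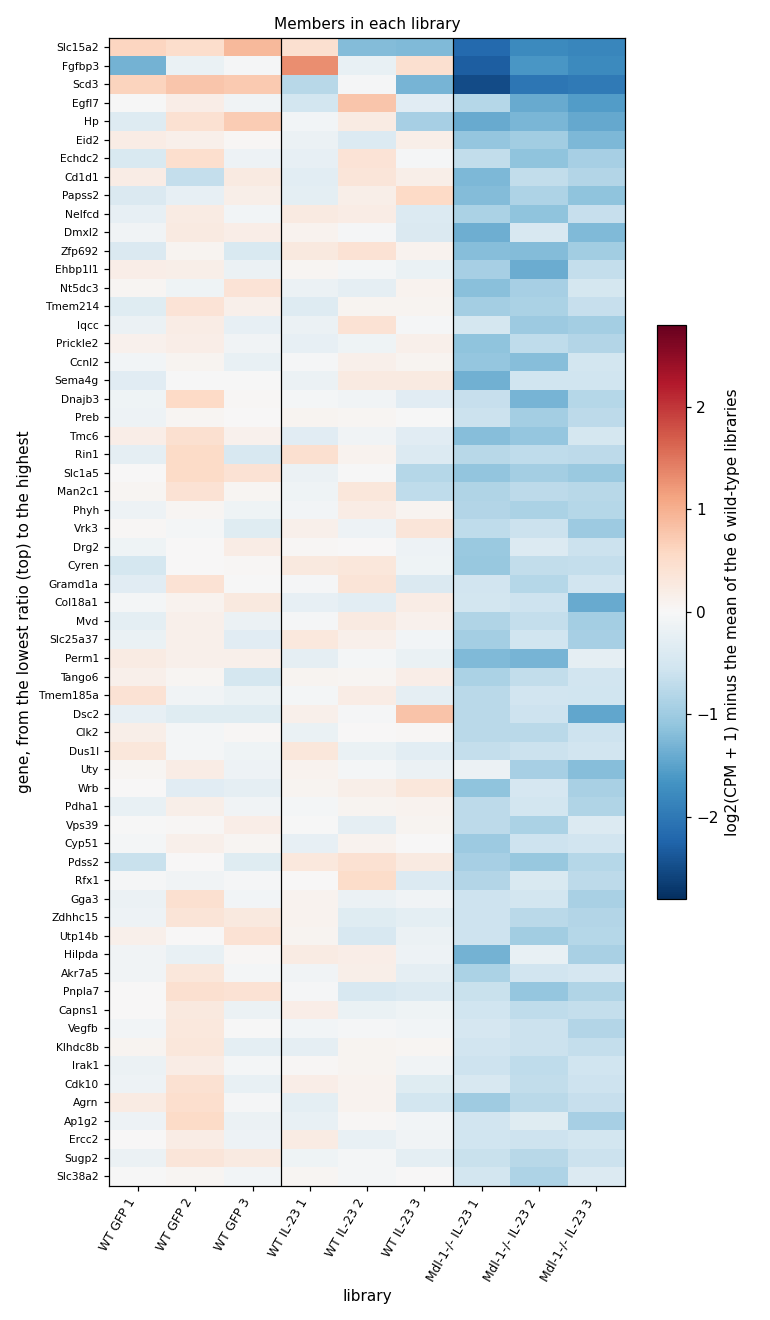
Each row is 1 of the 62 genes, ordered by the ratio that chose them, and each column 1 of the 9 libraries. Colour gives log2(CPM + 1) as the difference from the 6 wild-type libraries' mean, and the 3 Mdl-1-/- columns are lower throughout because the genes were selected for this.

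The scale on which libraries are compared decides part of the membership. Scaling by the trimmed mean of M-values (TMM), which sets the bulk of genes equal between libraries, used mean factors of 1.16 for GFP, 0.878 for wild-type IL-23 and 0.981 for Mdl-1-/- libraries. Relative to CPM of library totals, TMM therefore lowers the GFP values and raises those of wild-type IL-23. The same criteria applied to TMM-scaled CPM gave 55 genes, of which 28 were among the 62 (45.2% of the 62 and 50.9% of the 55). With upper-quartile scaling 51 genes met the criteria and 25 of them were shared. In 18 genes the criteria were met on library totals, TMM and upper-quartile scale and also on Mdl-1-/- library 1 alone. These were Slc15a2, Scd3, Egfl7, Hp, Eid2, Echdc2, Papss2, Nelfcd, Zfp692, Ehbp1l1, Nt5dc3, Tmem214, Prickle2, Tmc6, Slc1a5, Man2c1, Perm1 and Agrn.

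**Figure D3:**
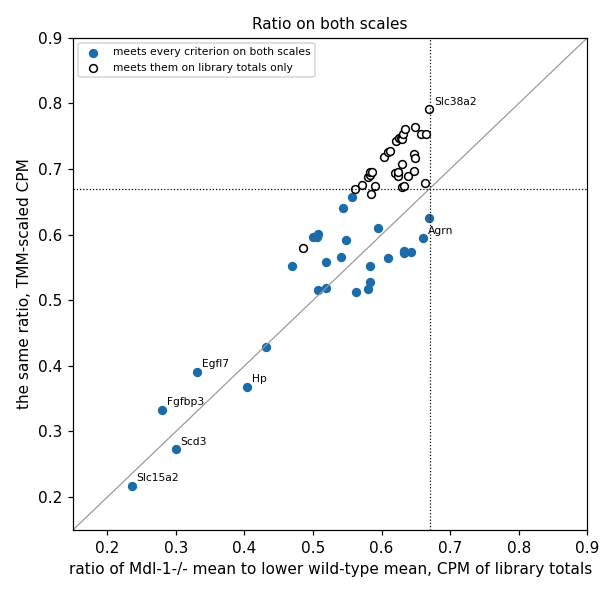
For each of the 62 genes the x axis gives the ratio of the Mdl-1-/- mean to the lower wild-type mean on library totals and the y axis the same ratio on TMM-scaled CPM; dotted lines mark 0.67 and the grey line equality. The 28 filled points meet every criterion on both scales and the 34 open points on library totals only, from Slc15a2 at the lower left to Slc38a2 at the upper right.

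Promoters are shown for 6 members: the genes with the lowest and second lowest ratio (Slc15a2, Fgfbp3), neighbours on chromosome 4 (Ccnl2, Agrn) and both members of sterol synthesis (Cyp51, Mvd). Each is the 250 bases before the RefSeq start of the gene on GRCm38.p6, 5′ to 3′ on the gene's strand. Capitals mark matches on either strand to the GC box GGGCGG, to CCAAT or to the TATA box TATAAA. The regions are chr16:36784963-36785212 for Slc15a2, chr19:36919600-36919849 for Fgfbp3, chr4:155812239-155812488 for Ccnl2, chr4:156197489-156197738 for Agrn, chr5:4104698-4104947 for Cyp51 and chr8:122443423-122443672 for Mvd; only Ccnl2 is on the plus strand. The RefSeq starts of Cyp51 and Fgfbp3 lie inside the GENCODE gene, so the last bases shown for these are transcribed by that annotation.
Slc15a2: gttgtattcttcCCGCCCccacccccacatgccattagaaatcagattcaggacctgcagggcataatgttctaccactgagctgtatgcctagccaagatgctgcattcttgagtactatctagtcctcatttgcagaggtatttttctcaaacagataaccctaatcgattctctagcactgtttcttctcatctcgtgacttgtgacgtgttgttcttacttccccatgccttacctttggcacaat
Fgfbp3: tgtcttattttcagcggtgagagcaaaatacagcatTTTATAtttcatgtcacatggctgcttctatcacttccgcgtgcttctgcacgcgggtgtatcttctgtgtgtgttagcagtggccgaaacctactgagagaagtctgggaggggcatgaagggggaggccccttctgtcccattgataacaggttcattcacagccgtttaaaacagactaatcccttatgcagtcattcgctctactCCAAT
Ccnl2: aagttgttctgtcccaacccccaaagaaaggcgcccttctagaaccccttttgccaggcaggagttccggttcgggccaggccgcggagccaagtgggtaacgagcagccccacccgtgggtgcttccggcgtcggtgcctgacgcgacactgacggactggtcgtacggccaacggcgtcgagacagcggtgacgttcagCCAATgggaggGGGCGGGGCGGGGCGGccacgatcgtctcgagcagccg
Agrn: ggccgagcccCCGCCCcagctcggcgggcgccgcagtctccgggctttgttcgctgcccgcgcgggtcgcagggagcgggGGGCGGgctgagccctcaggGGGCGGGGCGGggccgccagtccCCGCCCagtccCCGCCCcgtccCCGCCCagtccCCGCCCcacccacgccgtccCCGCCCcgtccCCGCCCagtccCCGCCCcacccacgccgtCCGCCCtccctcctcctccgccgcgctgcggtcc
Cyp51: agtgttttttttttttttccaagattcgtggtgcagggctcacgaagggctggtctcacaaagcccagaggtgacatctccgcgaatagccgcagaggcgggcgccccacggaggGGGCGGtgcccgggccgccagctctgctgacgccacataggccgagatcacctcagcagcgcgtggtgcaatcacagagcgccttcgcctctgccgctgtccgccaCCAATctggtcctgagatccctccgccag
Mvd: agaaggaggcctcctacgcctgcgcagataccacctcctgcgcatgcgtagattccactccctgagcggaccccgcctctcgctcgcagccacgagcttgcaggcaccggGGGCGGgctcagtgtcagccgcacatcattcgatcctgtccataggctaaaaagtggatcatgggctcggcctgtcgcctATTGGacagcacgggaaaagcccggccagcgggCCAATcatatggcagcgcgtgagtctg

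RefSeq promoters (250 bases before to 50 after the start; the first entry of a gene where there were several) were found for 53 of the 62 genes. The GC box GGGCGG was present in 36 of these 53 (67.9%), against 68.0% of 6464 promoters of genes that could have become members and 46.3% of all 17492. CCAAT was found in 30.2% against 38.6% and 39.0%, and TATAAA in 1 of 53 (1.89%) against 6.90% and 13.3%; that 1 was Fgfbp3. CACGTG, the E-box, was found in 15.1% against 10.9% and 7.90%. Agrn held 12 GC box matches and Ccnl2 4, some of which overlap each other. The core of the sterol regulatory element, searched as TCACNCCAC after the members were known, was found in 0 of the 53 promoters, against 1.07% and 1.17%; at shares this low nothing can be read from the 0. These matches are letters in a window and were not tested.

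The 4 members that move substrates across membranes ranged from the lowest to the highest ratio of the whole set. Slc15a2, the proton-coupled transporter of small peptides (chr16:36750177-36784962, minus strand), was read at 12.02, 11.1 and 15.2 CPM for GFP, 10.8, 2.75 and 2.65 CPM for wild-type IL-23 and 0.896, 1.49 and 1.43 CPM for Mdl-1-/- libraries. The Mdl-1-/- level was 10.03-fold below the GFP mean and 4.25-fold below the wild-type IL-23 mean, on 17 counts over the 3 Mdl-1-/- libraries. Wild-type IL-23 libraries 2 and 3 were themselves low, and library 1 lay just below the GFP libraries. Slc1a5, which imports glutamine, stood at 36.1, 52.5 and 47.3 CPM for GFP, 31.9, 35.5 and 20.1 CPM for wild-type IL-23 and 16.1, 17.9 and 16.98 CPM for Mdl-1-/- libraries. All 3 wild-type IL-23 values lay below all 3 GFP values, and the Mdl-1-/- libraries lay lower still. Slc38a2, the amino acid transporter SNAT2, was by far the most abundant member, with 797 ± 36.1 CPM for GFP, 799.6 ± 32.6 CPM for wild-type IL-23 and 534 ± 89.2 CPM for Mdl-1-/- (SD, n = 3). Its wild-type groups overlapped, and its TMM ratio was 0.791, above the limit. Slc25a37, the iron importer of mitochondria, had means of 30.1 ± 5.36 CPM for GFP, 35.8 ± 4.53 CPM for wild-type IL-23 and 18.3 ± 3.13 CPM for Mdl-1-/-.

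**Figure D4:**
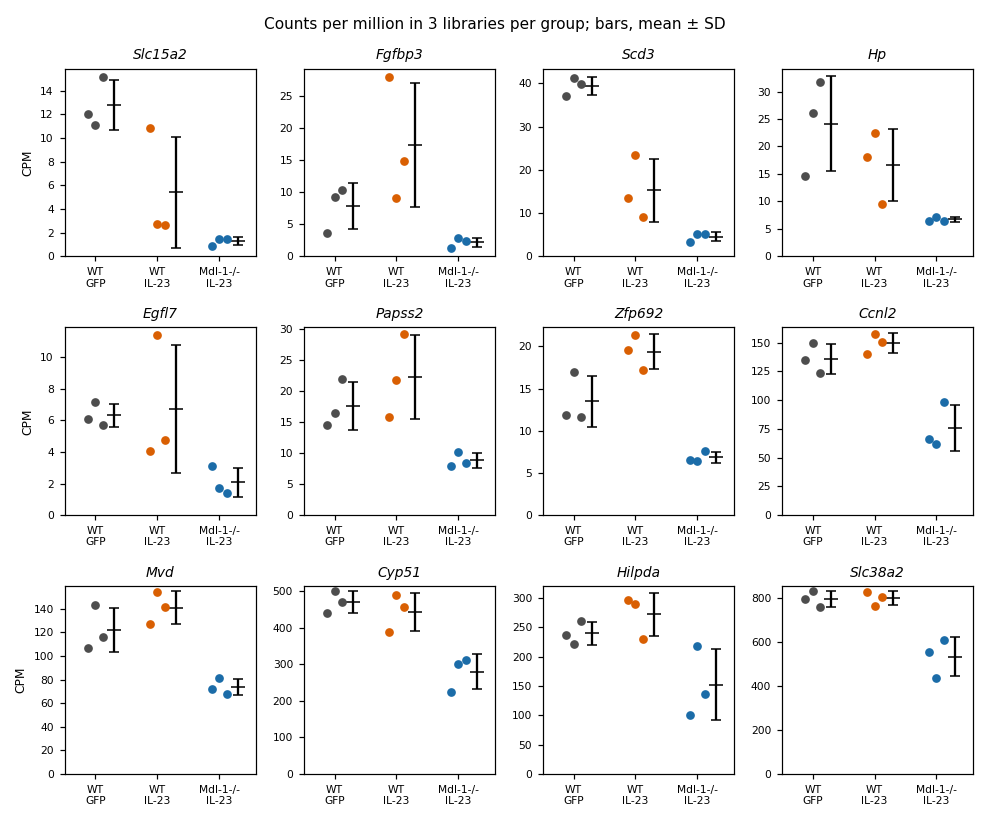
CPM (y axis, from 0) of 12 members in the 3 libraries of each group (x axis); the bar beside the points gives mean ± SD, n = 3. In every panel the Mdl-1-/- points lie below all wild-type points, which the selection required, while the wild-type groups are apart in 3 panels (Slc15a2, Scd3 and Zfp692) and overlap in the others.

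Lipid and sterol genes made up 8 of the 62. Scd3, a fatty acid desaturase of sebaceous glands (chr19:44203269-44244016, plus strand), was read at 37.1, 41.2 and 39.96 CPM for GFP, 13.4, 23.3 and 9.004 CPM for wild-type IL-23 and 3.36, 5.11 and 5.26 CPM for Mdl-1-/- libraries. The groups formed 3 separate steps, with GFP highest and Mdl-1-/- lowest; the gene has near-identical relatives beside it, so its level is uncertain. Among 12 other tested genes of the sebaceous list, edgeR called 8 lower and 0 higher in Mdl-1-/- ear than with GFP DNA (6.93% and 10.2% of all genes were called so). Against wild type with IL-23 DNA edgeR called 0 lower (10.1% of all genes) and 2 higher (7.58%), namely Elovl6 and Far2; at an unadjusted p under 0.05 the counts were 3 and 3. Without Mdl-1-/- libraries 2 and 3, a fit in which the lone library is assumed to vary like the others, 2 of 14 were lower than GFP (0.897% of all genes), and against wild-type IL-23 1 was lower (4.02%) and 1 higher (4.04%). The nearest relative in the list, Scd1, had a log2 difference of 0.10 there (edgeR adjusted p = 0.774). Scd3 was 3.33-fold lower in Mdl-1-/- ear than in wild type given IL-23, and whether it differs in this from the list was not tested.

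The sterol enzymes among the members were Cyp51, which removes a methyl group from lanosterol, and Mvd, the mevalonate diphosphate decarboxylase. Cyp51 stood at 439.7, 499 and 469 CPM for GFP, 387, 488 and 455 CPM for wild-type IL-23 and 225, 302 and 312 CPM for Mdl-1-/- libraries. Its wild-type groups overlapped and the Mdl-1-/- values were 1.68-fold and 1.59-fold below the GFP and wild-type IL-23 means. Mvd had 107, 143 and 116 CPM for GFP, 127, 154 and 141 CPM for wild-type IL-23 and 72.1, 81.4 and 67.4 CPM for Mdl-1-/- libraries, again with overlapping wild-type groups. Neither met the criteria on TMM scale, where the ratios were 0.707 and 0.718. Of 15 other tested cholesterol synthesis genes, 4 were called lower and 2 higher in Mdl-1-/- ear than in wild type given IL-23. Over all genes these shares were 10.1% and 7.58%. Against GFP DNA 4 of the 15 were called lower and 1 higher (6.93% and 10.2% of all genes). Among those lower than in wild type given IL-23 were Sqle (log2 difference -0.51, edgeR adjusted p = 0.0301), Dhcr7 (-0.60) and Stard4 (-0.70). Insig1 (0.70) was among those higher, and the genes of the pathway did not share a direction. Without Mdl-1-/- libraries 2 and 3 the counts were 2 lower and 1 higher against wild-type IL-23, and 4 lower and 0 higher against GFP.

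The other lipid genes were Phyh, Hilpda, Gramd1a, Pnpla7 and Echdc2. Phyh, which starts the breakdown of branched fatty acids in peroxisomes, was read at 120.0, 139 and 123 CPM for GFP, 126, 152 and 139.6 CPM for wild-type IL-23 and 75.2, 71.2 and 76.04 CPM for Mdl-1-/- libraries. Its 3 Mdl-1-/- libraries lay within a narrow range, 36.6% or more below every wild-type library. On TMM scale Phyh did not meet the criteria, with a ratio of 0.691. Hilpda, a lipid droplet protein induced by low oxygen, was read at 236, 221 and 261 CPM for GFP, 297, 289.6 and 229.9 CPM for wild-type IL-23 and 101, 219 and 136 CPM for Mdl-1-/- libraries. Mdl-1-/- library 2 lay only 0.994% below the lowest wild-type library, while libraries 1 and 3 were far lower. Gramd1a, which carries sterol between membranes, had ratio 0.591 at 3.76 CPM in Mdl-1-/- ear; Pnpla7, a lysophospholipase, had 0.642. Echdc2, named for its enoyl-CoA hydratase domain, had 8.33 ± 3.06 CPM for GFP, 8.58 ± 2.16 CPM for wild-type IL-23 and 3.91 ± 0.756 CPM for Mdl-1-/- (SD, n = 3).

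Among secreted, matrix and adhesion genes, 5 of 8 met the criteria on TMM scale too. Fgfbp3, which releases fibroblast growth factors from the matrix (chr19:36917550-36919615, minus strand), was read at 3.67, 9.24 and 10.3 CPM for GFP, 27.9, 9.03 and 14.8 CPM for wild-type IL-23 and 1.34, 2.77 and 2.39 CPM for Mdl-1-/- libraries. The wild-type libraries ranged widely, with GFP library 1 the lowest of them, and the Mdl-1-/- group held 29 counts in all. Egfl7, secreted by endothelial cells, stood at 6.11, 7.14 and 5.71 CPM for GFP, 4.04, 11.4 and 4.77 CPM for wild-type IL-23 and 3.13, 1.70 and 1.43 CPM for Mdl-1-/- libraries. A single wild-type IL-23 library, number 2, raised that group's mean, and the other libraries of the group were below the GFP libraries. Of 7 other tested genes of the blood endothelium list, 0 were called lower or higher in Mdl-1-/- ear than in wild type with IL-23 DNA. At an unadjusted p under 0.05, Kdr was lower and Ptprb higher, 1 gene each way. Against GFP DNA Kdr and Ptprb were called lower (adjusted p = 0.0445 and 0.0341). Without Mdl-1-/- libraries 2 and 3 edgeR called 0 of 10 lower or higher than GFP, and against wild-type IL-23 0 lower and 1 higher. Vegfb, a growth factor of the VEGF family, had 11.4 ± 1.75 CPM for GFP, 10.4 ± 0.197 CPM for wild-type IL-23 and 6.72 ± 0.940 CPM for Mdl-1-/- (SD, n = 3). Col18a1, the basement membrane collagen that holds endostatin, had 18.9 ± 2.36 CPM for GFP, 16.3 ± 3.53 CPM for wild-type IL-23 and 9.71 ± 3.25 CPM for Mdl-1-/-. Agrn, a heparan sulfate proteoglycan of basement membranes, had 77.8 ± 13.6 CPM for GFP, 56.8 ± 12.5 CPM for wild-type IL-23 and 37.6 ± 4.52 CPM for Mdl-1-/-. Col1a1 of the dermis stood at 244, 86.9 and 33.96 CPM in the Mdl-1-/- libraries and Dcn at 214, 77.1 and 115 CPM, so that library 1 was the highest of the group in both; what part such differences have in these genes was not tested.

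Dsc2, a desmosomal cadherin, was read at 7.54, 6.93 and 6.96 CPM for GFP, 9.998, 8.83 and 16.4 CPM for wild-type IL-23 and 4.93, 5.75 and 2.63 CPM for Mdl-1-/- libraries; the Mdl-1-/- mean was 2.65-fold below wild-type IL-23 and 1.61-fold below GFP. Library 1 alone did not meet the criteria for this gene, and library 3 was the lowest. Prickle2, of planar cell polarity, held on every scale with 24.4 ± 2.52 CPM for GFP, 22.1 ± 3.17 CPM for wild-type IL-23 and 12.1 ± 1.84 CPM for Mdl-1-/-. Sema4g, a membrane semaphorin, was low throughout, at 3.15 CPM in Mdl-1-/- ear and 5.62 CPM with GFP DNA.

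The immune members were Hp, Cd1d1 and Irak1. Hp encodes haptoglobin, which binds free haemoglobin and is stored in neutrophils but also made by other cells (chr8:109575128-109579172, minus strand). Its values were 14.7, 26.1 and 31.8 CPM for GFP, 18.1, 22.4 and 9.53 CPM for wild-type IL-23 and 6.49, 7.24 and 6.46 CPM for Mdl-1-/- libraries. The wild-type groups overlapped while the Mdl-1-/- libraries were nearly equal to each other. In contrast to Hp, 8 of 10 other tested neutrophil genes rose under IL-23 in wild-type ear (22.9% of all genes) and 0 fell; Hp had a log2 difference of -0.14 (adjusted p = 0.718). In Mdl-1-/- ear 3 of these 10 were called lower than in wild type given IL-23 (Csf3r, Retnlg and Clec4d; 10.1% of all genes). At an unadjusted p under 0.05 the number was 8, among them S100a8 (log2 difference -1.82, edgeR adjusted p = 0.0777) and S100a9 (-1.50, adjusted p = 0.0816), and the median of the 10 was -1.66. Cxcr2 (-0.28) and Wfdc21 (0.63) were not among these 8. S100a8 and S100a9 also stand in the list of stress keratin and cornified envelope genes. Of the 10, 3 were called higher than with GFP DNA (Cxcr2, S100a8 and S100a9). Without Mdl-1-/- libraries 2 and 3 these counts were 3 and 3 of 11. Cd1d1, which presents lipids to natural killer T cells, was read at 10.4, 5.25 and 10.7 CPM for GFP, 7.02, 11.4 and 10.1 CPM for wild-type IL-23 and 3.13, 5.11 and 4.54 CPM for Mdl-1-/- libraries; GFP library 2 was the lowest of the wild-type libraries, with the highest Mdl-1-/- library 2.64% below it, and the gene did not meet the criteria on TMM scale. Irak1, a kinase of interleukin 1 and Toll-like receptor signalling on chromosome X, had 146 ± 19.8 CPM for GFP, 146 ± 9.46 CPM for wild-type IL-23 and 94.5 ± 4.96 CPM for Mdl-1-/-.

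The 13 nuclear genes included splicing regulators. Ccnl2, cyclin L2 (chr4:155812489-155824543, plus strand), was read at 135, 149 and 123 CPM for GFP, 140.0, 157 and 151 CPM for wild-type IL-23 and 66.3, 62.01 and 98.8 CPM for Mdl-1-/- libraries. Mdl-1-/- library 3 was the highest of its group and still below all wild-type libraries. Clk2, a kinase of splicing factors, had 26.9, 22.9 and 24.6 CPM for GFP, 20.8, 24.3 and 24.6 CPM for wild-type IL-23 and 13.9, 13.9 and 15.8 CPM for Mdl-1-/- libraries. Cdk10, a cyclin-dependent kinase, and Sugp2, a putative splicing factor, had ratios of 0.658 and 0.669. Of 22 listed RNA-binding and splicing genes, among them Clk1 and Clk4, 0 met the criteria. In Mdl-1-/- ear edgeR called 8 of these 22 lower and 0 higher than in wild type given IL-23 (10.1% and 7.58% of all genes). Against GFP DNA 3 were called lower and 1 higher (6.93% and 10.2%). Zfp692, a zinc finger protein, was read at 11.8, 17.02 and 11.6 CPM for GFP, 19.6, 21.4 and 17.2 CPM for wild-type IL-23 and 6.49, 6.39 and 7.65 CPM for Mdl-1-/- libraries, with all groups apart and wild-type IL-23 highest. Eid2, an inhibitor of EP300-dependent transcription, had 8.97, 8.61 and 7.85 CPM for GFP, 6.81, 5.69 and 8.74 CPM for wild-type IL-23 and 3.13, 3.41 and 2.63 CPM for Mdl-1-/- libraries. Nelfcd, a subunit of the complex that pauses RNA polymerase II, had 9.86 ± 1.74 CPM for GFP, 10.4 ± 2.58 CPM for wild-type IL-23 and 4.98 ± 0.966 CPM for Mdl-1-/- (SD, n = 3). Ercc2, the helicase of TFIIH, had 0.664 and the transcription factor Rfx1 0.631. Vrk3 (0.584), the end-joining regulator Cyren (0.586), the tRNA dihydrouridine synthase Dus1l (0.624) and Utp14b (0.633), which lies within Acsl3 on the same strand, complete the group.

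Genes of membrane traffic numbered 10, and 3 of them met the criteria on TMM scale. Ehbp1l1, an effector of Rab8, was read at 42.4, 41.4 and 32.6 CPM for GFP, 38.5, 35.3 and 32.6 CPM for wild-type IL-23 and 19.03, 13.4 and 22.7 CPM for Mdl-1-/- libraries. The 3 Mdl-1-/- values lay 30.3% or more below every wild-type library. Dmxl2, which helps assemble the proton pump of vesicles, had 10.6, 13.9 and 13.2 CPM for GFP, 12.3, 11.2 and 8.47 CPM for wild-type IL-23 and 3.81, 8.10 and 4.30 CPM for Mdl-1-/- libraries, with Mdl-1-/- library 2 close to wild-type IL-23 library 3. Preb, which starts COPII vesicles at the endoplasmic reticulum, had 11.8 ± 0.936 CPM for GFP, 12.4 ± 0.441 CPM for wild-type IL-23 and 6.77 ± 0.941 CPM for Mdl-1-/-, and its neighbour Tmem214 had 9.43 ± 2.54 CPM for GFP, 8.36 ± 1.53 CPM for wild-type IL-23 and 4.52 ± 0.654 CPM for Mdl-1-/-. Rin1, a Rab5 activator, had ratio 0.580, Tango6 0.612, Vps39 of the lysosomal tethering complex 0.630, and Wrb, the receptor for tail-anchored proteins, 0.625. The Golgi adaptors Gga3 and Ap1g2 had 0.632 and 0.663.

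In the remaining metabolism, Papss2, which makes the sulfate donor PAPS, was read at 14.5, 16.4 and 21.9 CPM for GFP, 15.7, 21.8 and 29.1 CPM for wild-type IL-23 and 7.84, 10.2 and 8.37 CPM for Mdl-1-/- libraries. The wild-type IL-23 libraries spread from near the lowest GFP value to above the highest. Pdss2, of coenzyme Q synthesis, had 16.3, 25.8 and 20.2 CPM for GFP, 31.7, 35.3 and 30.98 CPM for wild-type IL-23 and 12.99, 11.9 and 14.3 CPM for Mdl-1-/- libraries, with wild-type IL-23 above GFP and GFP above Mdl-1-/- in all libraries. Pdha1, the E1 subunit of pyruvate dehydrogenase on chromosome X, had 134 ± 18.9 CPM for GFP, 142 ± 8.05 CPM for wild-type IL-23 and 84.1 ± 9.88 CPM for Mdl-1-/-. Perm1, a regulator of muscle mitochondria, had 31.8, 30.05 and 29.97 CPM for GFP, 22.5, 25.9 and 23.6 CPM for wild-type IL-23 and 10.97, 10.4 and 22.5 CPM for Mdl-1-/- libraries. Mdl-1-/- library 3 lay 0.312% below the lowest wild-type library; that library also had the most RNA of the muscle gene Ckm in its group, with 92 counts against 21 and 25. The part of muscle in the Perm1 values was not tested. Akr7a5, an aldo-keto reductase, and Man2c1, an alpha-mannosidase, had ratios of 0.638 and 0.583.

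Uty, a histone demethylase relative on the Y chromosome, was read at 55.6, 62.4 and 49.1 CPM for GFP, 57.6, 51.8 and 48.2 CPM for wild-type IL-23 and 47.7, 27.7 and 22.96 CPM for Mdl-1-/- libraries. Library 1, without Xist, lay 1.06% below the lowest wild-type library, and libraries 2 and 3, with Xist, carried the low mean; on library 1 alone the gene was no member. The 4 X-linked members were Irak1, Pdha1, Tmem185a and Zdhhc15. Irak1 and Tmem185a did not share this split, Zdhhc15 was highest in library 1, and Pdha1 is not given by library. Libraries 1, 2 and 3 stood at 96.7, 88.9 and 98.04 CPM in Irak1, at 4.03, 4.90 and 4.78 CPM in Tmem185a and at 4.93, 4.26 and 4.07 CPM in Zdhhc15. The other 9 members were Iqcc, Nt5dc3, Dnajb3, Tmc6, Drg2, Tmem185a, the palmitoyltransferase Zdhhc15, the calpain subunit Capns1 and Klhdc8b. Iqcc had 7.59 ± 1.44 CPM for GFP, 8.50 ± 2.01 CPM for wild-type IL-23 and 4.12 ± 1.09 CPM for Mdl-1-/- (SD, n = 3). Nt5dc3 was read at 6.11, 5.25 and 7.85 CPM for GFP, 5.11, 4.71 and 6.36 CPM for wild-type IL-23 and 2.01, 2.56 and 3.83 CPM for Mdl-1-/- libraries. Dnajb3 had 13.9 ± 3.88 CPM for GFP, 10.7 ± 1.05 CPM for wild-type IL-23 and 6.04 ± 1.61 CPM for Mdl-1-/-. The ratios of the 9 ran from 0.519 in Nt5dc3 to 0.648 in Klhdc8b.

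The comparison of the wild-type groups, whose difference was no criterion, asks whether the same genes respond to IL-23 when MDL-1 is present. Fgfbp3 had the largest rise called among the 62 (log2 fold change 1.53, SE 0.42, edgeR adjusted p = 0.0114), and Scd3 was the only one called lower (-0.96, SE 0.25, adjusted p = 0.00575). Dsc2 rose by 1.12 (adjusted p = 0.00978), Pdss2 by 1.06 (0.000360) and Zfp692 by 0.93 (0.00230) on the log2 scale. In all, edgeR called 14 of the 62 genes higher (22.6%) and 1 lower (1.61%). Over all 13807 genes tested 22.9% were called higher and 21.7% lower, and over the 8044 genes that could have become members 27.9% and 19.4%. The count of 14 became 9 without GFP library 1 and 8 without GFP library 3, and the count of 1 became 2 without wild-type IL-23 library 1. A fit that leaves out Mdl-1-/- libraries 2 and 3 called 15 higher and 1 lower. The share that rose lay near that of all genes tested and below that of the 8044. The share that fell was below both, and a gene that IL-23 DNA lowered had to be lower still in Mdl-1-/- ear to be chosen.

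The other genes that rose were Wrb (0.80), Papss2 (0.74), Cyren (0.72), Slc25a37 (0.65), Mvd (0.61), Ccnl2 (0.54), Phyh (0.54), Pdha1 (0.49), Slc38a2 (0.41) and Irak1 (0.40), all with an edgeR adjusted p under 0.05. On library totals 0 of these 10 were called and Irak1 changed sign, to -0.0090 (adjusted p = 0.962). The median log2 fold change of the 62 genes was 0.32, against 0.08 over the genes that could have become members and -0.04 over all genes tested. On library totals it was -0.08 against -0.44 over all genes tested. A gene that IL-23 DNA lowered had to be lower still in Mdl-1-/- ear to be chosen, which bears on these medians too. On library totals, the scale of the selection, 2 of the 62 were called higher (Fgfbp3 and Pdss2; 3.23%, against 11.8% of all genes) and 5 lower (Scd3, Slc15a2, Slc1a5, Pnpla7 and Agrn; 8.06% against 40.1%). Upper-quartile scaling gave 8 higher (12.9% against 17.9%) and 1 lower (1.61% against 28.1%). On both of these scales the share that rose was below that of all genes. The raw CPM of the wild-type groups overlapped in 52 of the 62 genes, and the wild-type IL-23 mean was above the GFP mean in 25. Neither count was made over the 8044 genes that could have become members, so whether the members differ from those was not tested.

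**Figure D5:**
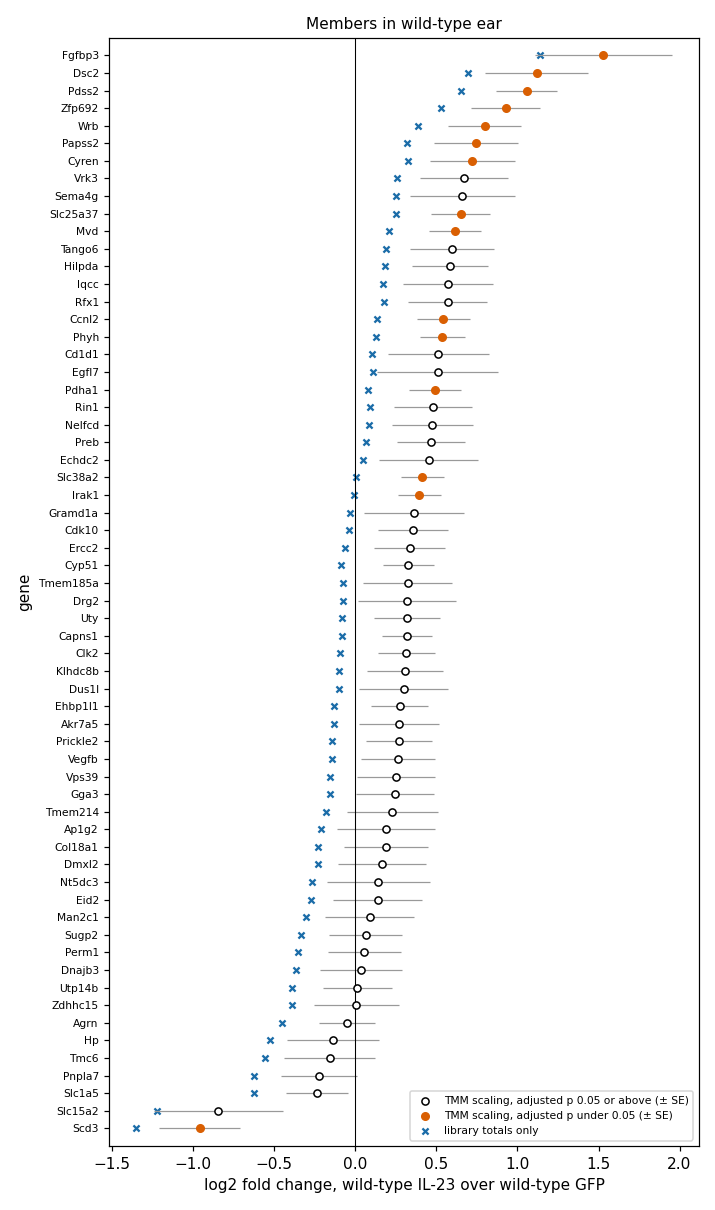
The x axis gives the log2 fold change of wild-type IL-23 over wild-type GFP libraries for the 62 genes (y axis), with TMM scaling as circles with the standard error (filled where the edgeR adjusted p was under 0.05) and with library totals only as crosses. Fgfbp3 at the top and Scd3 at the bottom keep their side on both scales, while the crosses of most other genes lie near or below 0.

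Position and composition were described beside the 8044 genes that could have become members. Chromosome 19 held 7 of the 62 (11.3%, against 3.17% of the 8044): Rin1, Ehbp1l1, Vegfb, Papss2, Fgfbp3, Scd3 and Sema4g. Chromosomes 12, 13 and 17 held none. There were 8 pairs of members within 1 Mb of each other, with no account taken of gene density. The closest were Agrn and Perm1 on chromosome 4, 18.4 kb apart, and Tmem214 and Preb on chromosome 5, 71.7 kb apart, with 0 other eligible genes between the members of either pair. Ccnl2 lies 341 kb from Agrn and 391 kb from Perm1. On chromosome 6, which carries Clec5a, the members were Hilpda and Cyren, 11.3 and 5.71 Mb before it, and Prickle2, 52.0 Mb after it. Of the 109 eligible genes within 20 Mb of Clec5a, 2 were members (1.83%, against 0.771% of the 8044) and 5 had every Mdl-1-/- library below all wild-type libraries (4.59% against 3.8%).

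The members were shorter genes of higher GC content and lower level than the genes they were drawn from. The median span was 13.9 kb against 27.2 kb, while the longest protein-coding transcript had a like median length (3222.5 against 3345 bases). Median GC was 53.9% against 49.2% over that transcript and 47.9% against 42.7% over its last 500 bases, where 3' tags fall. When the eligible genes were divided into 5 classes of about equal size by this 3' GC, 23 of the members were in the highest class and 7 in the lowest. Across the same classes the median log2 ratio of Mdl-1-/- to wild-type IL-23 CPM went from 0.24 in the lowest to -0.09 in the highest, over all eligible genes and with 1 CPM added. Against GFP it went from -0.27 to -0.17, and the ratio of wild-type IL-23 to GFP went from -0.49 to -0.08. Median level in wild type was 12.4 CPM against 30.8, and counting error is larger at low counts; the 62 genes had a median of 90 counts over the 3 Mdl-1-/- libraries. What part GC content and level have in the selection was not tested.

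Another gene with a mean of at least 5 counts overlapped 15 of the 62 (24.2%, against 23.4% of the 8044), on the opposite strand in 12. Without a stated strand setting, reads of such pairs cannot be told apart. Relative to the member's own mean count the partner was most abundant for Iqcc, where Tmem234 had 15.2 times as many counts. The ratio was 5.04 for Pnpla7 with a processed pseudogene inside it, 3.35 for Utp14b inside Acsl3, 2.25 for Klhdc8b with Ccdc71 and 2.01 for Gga3 with Mrps7. For Pdss2 with a processed pseudogene it was 0.906 and for Cyp51 with Akap9 0.446; it was under 0.6 for each other pair. The levels of these members are uncertain to that extent.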

How the data were processed

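Ears of 9 libraries (3 groups of 3) were read by 3' tag RNA-Seq. The authors' deposited tables hold raw counts per gene, made with STAR 2.7.0a and featureCounts, per the submitters' processing notes; the notes also name edgeR and a build GRCh38.p6, a human name, while the gene identifiers are those of mouse. The sources used here do not give the strand setting or the treatment of multiply mapped reads. The 3 tables share libraries, whose values were identical (0 differed), and were joined.

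Symbols, types and positions came from GENCODE M21 on GRCm38; 29 identifiers did not match. Counts were fitted with edgeR 4.0.16 (R 4.3.3; TMM, filterByExpr with a minimum count of 10, robust quasi-likelihood test) over all 9 libraries, with Benjamini-Hochberg adjustment over 13807 genes and a threshold of 0.05. Alternatives used DESeq2 1.42.0, limma 3.58.1 and other scalings, filters and left-out libraries. On simulated counts for wild-type IL-23 against GFP over 13807 genes, 54% of 2-fold and 88% of 4-fold changes were recovered, and 5.33% of calls were false. Only 100 genes were changed 2-fold and 100 were changed 4-fold there, far fewer than were called in the data. The simulation therefore does not measure error that comes from the choice of scaling.

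The members, gene lists and tests were chosen with earlier results of these data known. Members were named by rule: the 20 with the lowest ratios, up to 10 called rises and up to 10 called falls (1 was called), the 10 highest levels, those in a list, those within 20 Mb of Clec5a and the 3 nearest to the ratio limit. For some only the ratio is given, and the other members are named so that all 62 are accounted for, which was decided after their values were seen. Comparisons of Mdl-1-/- ear with each wild-type group share the Mdl-1-/- libraries. Genes outside the 62 were tested in those comparisons with the same fit. Some genes of the lists are counted but not reported here by name.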

Additional observations from a re-analysis of the deposited data

How the results depend on the processing

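The numbering of libraries is shared by the groups, but the deviations of same-numbered libraries correlated between -0.0863 and 0.230, not all above 0.1. Those of differently numbered libraries correlated between -0.214 and 0.175. The numbers were therefore not used to pair the samples, but correlations within groups of 3 cannot exclude a pairing. With the replicate number as a block, 14 members were called higher and 1 lower in wild-type IL-23 against GFP, as without it.

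The number of genes meeting the criteria, 62, was 8 at a ratio of at most 0.5, 209 at 0.8, 36 with a minimum of 10 CPM, 54 to 128 when 1 library was left out, and 220 on Mdl-1-/- library 1 alone (chosen after seeing the data). The 14 members called higher became 8 with upper-quartile scaling, 2 on library totals only (chosen after seeing the data) and 8 to 17 when 1 library was left out. The 1 called lower became 2 without a count filter, 2 with limma voom, 5 on library totals and 1 to 2 when 1 library was left out. Fgfbp3, Pdss2 and Scd3 were called under all 20 alternatives; of the others, Cyren was lost in 7, Papss2, Pdha1 and Irak1 in 6 each, and Slc38a2 in 5.

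For 36 members and 20 alternatives, the log2 change of wild-type IL-23 over GFP changed sign 28 times, 27 of them in genes called in neither fit. On library totals only it was -0.27 in Eid2, -0.23 in Dmxl2, -0.13 in Ehbp1l1, -0.27 in Nt5dc3, -0.18 in Tmem214, -0.14 in Prickle2, -0.36 in Dnajb3, -0.086 in Cyp51, -0.0090 in Irak1 (called higher with TMM), -0.085 in Uty, -0.064 in Ercc2 and -0.34 in Sugp2. With upper-quartile scaling it was -0.018 in Eid2, -0.013 in Nt5dc3, -0.12 in Dnajb3 and -0.088 in Sugp2, and with a minimum count of 30 it was -0.020 in Dnajb3. When 1 library was left out it ran from -0.10 to 0.81 in Egfl7, from -0.39 to 0.11 in Hp, from -0.088 to 0.30 in Eid2, from -0.038 to 0.32 in Nt5dc3, from -0.11 to 0.31 in Dnajb3, from -0.22 to 0.12 in Agrn and from -0.080 to 0.20 in Sugp2. The cause was not tested. Depth limits the low members: 23 of the 62 had a Mdl-1-/- mean under 5 CPM.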
